A study of Arabidopsis thaliana with 6 samples.

Results

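The genes described here are 7 MADS-box transcription factor genes of Arabidopsis pollen, chosen by name from the 33602 genes in the count tables: AGL66 (AT1G77980), AGL104 (AT1G22130), AGL30 (AT2G03060), AGL65 (AT1G18750), AGL94 (AT1G69540), AGL18 (AT3G57390) and AGL29 (AT2G34440). All 7 were present in the tables and all 7 had enough counts to be tested, among 14273 tested genes. The first 5 belong to the MIKC* class of MADS-box factors. By textbook classification the remaining pair does not: AGL18 is a classical MIKC factor and AGL29 a type I MADS-box factor, so the group is one of pollen MADS-box genes rather than of the MIKC* class alone.

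RNA was sequenced from sorted pollen of the Col accession, with 3 libraries labelled paps1-3 and 3 labelled wild type, lettered A to C in each. Both groups came from plants of one genotype, written PAPS1 pLat52::RFP / paps1-3, so all grains developed on plants that carry the paps1-3 allele, the wild-type PAPS1 allele and a red fluorescent reporter driven by a pollen promoter. Flow sorting on red fluorescence separated the grains. The reporter is written on the PAPS1 side of the slash, which by that notation places it with the wild-type allele. Which fraction is mutant is otherwise not spelled out, and the labels give no gates, purities or plant age. They also do not tie a letter to a plant or a culture, so p-values here reflect the spread among libraries, part or all of which may be technical.

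MADS-box factors bind short AT-rich DNA elements as dimers. In Arabidopsis, MIKC* factors work as pairs of one S-clade protein (AGL66 or AGL104 in pollen) and one P-clade protein (AGL30, AGL65 or AGL94), and these pairs bind the MEF2-type CArG box. Plants that lack several of them have pollen with altered late maturation and poor germination or tube growth. PAPS1, the gene altered in the mutant, encodes a nuclear poly(A) polymerase, which adds the poly(A) tail to new messenger RNA.

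The MIKC* genes are close relatives, and the sequences of their DNA-binding domain are shown because the results turn on telling AGL66 from AGL104. The lines below give the first 180 coding bases, which lie in the first coding exon of each gene, from the RefSeq annotation of TAIR10.1. Capitals in the S-clade pair mark the 25 positions at which AGL66 and AGL104 differ.
AGL66 (TAIR10.1 chr1:29316888-29317067, minus strand): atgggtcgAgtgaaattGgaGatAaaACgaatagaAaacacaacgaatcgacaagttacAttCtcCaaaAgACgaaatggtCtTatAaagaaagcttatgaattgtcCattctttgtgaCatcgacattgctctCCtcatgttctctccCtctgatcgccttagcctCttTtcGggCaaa
AGL104 (TAIR10.1 chr1:7814080-7814259, minus strand): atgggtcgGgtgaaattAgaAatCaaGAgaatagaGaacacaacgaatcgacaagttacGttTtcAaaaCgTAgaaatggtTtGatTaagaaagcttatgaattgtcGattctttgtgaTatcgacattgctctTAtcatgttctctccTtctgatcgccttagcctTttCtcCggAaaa
The same stretch of the P-clade genes follows, with capitals at the 72 positions where the 3 genes are not all alike.
AGL30 (TAIR10.1 chr2:901614-901793, plus strand): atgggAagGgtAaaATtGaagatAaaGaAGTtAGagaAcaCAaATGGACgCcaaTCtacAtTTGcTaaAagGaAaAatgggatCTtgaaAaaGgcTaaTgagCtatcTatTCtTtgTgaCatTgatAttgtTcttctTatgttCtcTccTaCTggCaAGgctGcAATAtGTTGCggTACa
AGL65 (TAIR10.1 chr1:6467266-6467445, plus strand): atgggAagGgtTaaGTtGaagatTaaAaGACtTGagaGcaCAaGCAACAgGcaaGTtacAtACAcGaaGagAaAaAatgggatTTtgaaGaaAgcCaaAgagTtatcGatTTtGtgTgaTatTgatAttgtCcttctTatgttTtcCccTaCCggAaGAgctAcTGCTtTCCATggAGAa
AGL94 (TAIR10.1 chr1:26146980-26147159, minus strand): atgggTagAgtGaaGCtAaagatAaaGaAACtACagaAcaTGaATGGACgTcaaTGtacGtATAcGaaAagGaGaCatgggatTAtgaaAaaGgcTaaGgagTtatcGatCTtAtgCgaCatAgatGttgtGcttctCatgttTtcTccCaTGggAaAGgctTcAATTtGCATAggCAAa

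AGL66 and AGL104 had 86.1% identity over these bases, the highest of any pair among the 7 genes. Their longest identical coding stretch was 38 bases, and no pair among the 7 genes shared an exact run of 50 bases in its annotated transcripts. Reads in this study were 101 and 99 bases long, longer than any such shared run. One caveat on identity holds for AGL29: in TAIR10.1, 1007 of its 1064 exon bases overlap exons of AT2G34450 on the opposite strand. AT2G34450 itself had 19, 1 and 1 counts in the paps1-3 libraries (A, B, C) and 2, 0 and 1 in wild type. The libraries do not mark strand, so reads of the shared bases cannot be told apart by strand. Such reads may have been counted for AGL29 or set aside as ambiguous (2.24% to 2.64% of all rows per library). Which of these applies depends on the authors' annotation and options, which are not given. AGL29 values are therefore uncertain.

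How libraries are scaled matters for every gene. Levels are in CPM (counts per 1000000 gene counts of a library). Unless totals are named, they are on library sizes scaled by TMM, which assumes that most genes do not change, with factors of 1.47 to 1.68 for paps1-3 libraries and 0.61 to 0.67 for the wild-type ones. Scaling by total gene counts alone moved the log2 fold change of tested genes up by a median of 1.25. Most tested genes changed at adjusted p below 0.05 in edgeR, 72.2% by TMM and 80.0% by totals, so the TMM assumption is doubtful here. Both scalings are therefore given where they set the direction, and ratios between member genes inside a library, which need no scaling, are given separately.

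The 3 paps1-3 libraries held 19861313 to 41176647 gene counts and the wild-type libraries 31909683 to 37685541. Genes with at least 1 count numbered 30343, 27453 and 24587 in paps1-3 A, B and C. In wild type they numbered 19668, 16869 and 18324, so a gain of counts in near-silent genes was widespread in paps1-3. PAPS1 was lower in paps1-3, with 18, 9 and 3 counts against 32, 25 and 20. Defining pollen genes were abundant in both groups. The summed level of 12 vegetative cell markers, among which VGD1 and VGDH1 (pectin methylesterases of the pollen tube wall) were the most abundant, was 18360 to 22263 CPM across the paps1-3 libraries, against 59277 to 65856 in wild type, and by totals 30072 to 32891 against 39833 to 41283. The 12 did not all move alike. By TMM 2 were called higher and 9 lower (42.3% and 29.9% of all tested genes). By totals 4 were higher and 6 lower (70.3% and 9.70% of all tested genes). For 9 sperm markers, led by PCR11 and GEX1, the summed level was 151 to 205 against 759 to 802 CPM, and by totals 221 to 303 against 491 to 524. Of 8 tested sperm markers, 6 were called lower and 0 higher by TMM. By totals only PCR11 and GEX1 were called lower, and 1 marker was called higher. Markers of other flower and leaf cells were low in both groups. The 13 tapetum markers, led by AMS and MS2, summed to 1.92 to 4.86 against 2.91 to 3.36 CPM, and by totals to 2.82 to 8.15 against 1.78 to 2.26 CPM, so that every paps1-3 library lay above wild type on the second scale alone. Of these 13, 3 were at 0 in all wild-type libraries and 1 at 0 in all 6, and of 3 tested, AMS and MS2 fell by TMM and LAP6 rose (56, 28 and 23 counts against 3, 2 and 3). The 10 green tissue markers, led by RBCS3B and RBCS2B, summed to 3.05 to 4.04 against 6.50 to 6.63 CPM by TMM. By totals their order reversed, at 4.48 to 6.16 against 4.06 to 4.39 CPM. Of these 10, 2 were at 0 in all wild-type libraries, and of 3 tested, RBCS3B and RBCS2B fell by TMM and PSBO1 rose (23, 38 and 19 counts against 0, 0 and 2). By totals LAP6 and PSBO1 were the only genes called in these 2 lists, both higher; they are named after their values were seen. The part of these marker levels in the results on the MADS-box genes was not tested. Because this is RNA from bulk pollen, fewer cells of a type and less RNA per cell cannot be told apart.

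Among the MIKC* genes, transcripts of AGL66 and AGL94 were higher and those of AGL104 lower in paps1-3 pollen, under both scalings. AGL65 was higher by a small amount that depended on single libraries, and AGL30, the most abundant of the class, was not called by TMM and was higher by totals. AGL18 and AGL29 were lower by TMM and not called by totals. By edgeR with Benjamini-Hochberg adjustment over all tested genes, 3 members were called higher, 3 lower and 1 not at all. Of all tested genes 72.2% were called, 42.3% higher and 29.9% lower, so the number of members called does not stand out.

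**Figure D1:**
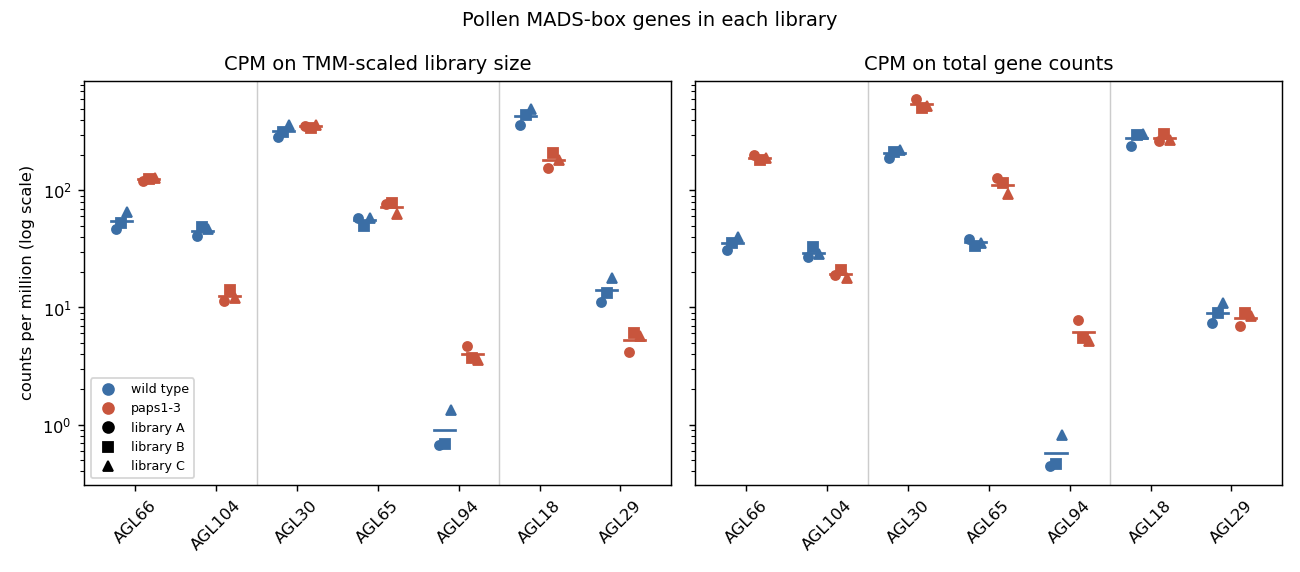
Level of each gene in each library in CPM on a log axis, on TMM-scaled library sizes (left) and on total gene counts (right). Blue is wild type, red is paps1-3, symbols are libraries A to C and bars are group means. AGL104 lies lower and AGL66 and AGL94 lie higher in every paps1-3 library in both panels, whereas AGL18 and AGL29 separate only on the left.

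Of the S-clade genes, AGL66 acts redundantly with AGL104 in pollen. It had 7350, 7545 and 3756 counts in the paps1-3 libraries (A, B, C) and 989, 1161 and 1508 in wild type. The lowest paps1-3 library exceeded the highest wild-type library more than 2-fold in raw counts although it was the shallowest. On TMM sizes the level was 124 ± 4.6 CPM in paps1-3 against 55.0 ± 9.5 in wild type (SD, n = 3 each). On the log2 scale the difference was 1.17 ± 0.14 (SE, edgeR adjusted p = 4.80e-08), and 2.43 by totals (adjusted p = 1.62e-11).

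AGL104 went the other way. It had 697, 865 and 353 counts in paps1-3 and 862, 1072 and 1070 in wild type. Its level was 12.6 ± 1.5 CPM against 45.3 ± 4.1 (SD, n = 3 each), and by totals 19.3 ± 1.6 against 29.4 ± 3.0. The groups did not overlap under either scaling. The fold change was −1.85 ± 0.14 on the log2 scale (edgeR adjusted p = 4.36e-11), and −0.60 by totals (adjusted p = 0.000498).

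The balance between these S-clade genes shifted in a way that does not depend on scaling. In wild type there were 1.15, 1.08 and 1.41 AGL66 counts for each AGL104 count in libraries A, B and C, a near-even supply of both S-clade genes. In paps1-3 there were 10.5, 8.72 and 10.6. Per kilobase of exon the ratio was 1.03 ± 0.15 in wild type and 8.50 ± 0.92 in paps1-3 (SD, n = 3 each). The log2 ratio of counts differed by 3.04 between groups, which did not overlap (two-sided exact permutation p = 0.1, the smallest that 3 against 3 libraries allow; 0.114 adjusted over 8 within-library measures). The pair was singled out after its values were seen.

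AGL67, the third S-clade gene, is known from seeds rather than pollen. It had 17, 3 and 0 counts in paps1-3 and 0 in each wild-type library, where a count of 0 allows up to 3 counts, and it was not tested. Part of its exons, 247 of 1410 bases in TAIR10.1, overlaps AT1G77960 on the opposite strand.

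Of the P-clade genes, AGL30 was the most abundant. It had 21970, 20822 and 10484 counts in paps1-3 and 6041, 6948 and 8334 in wild type. On TMM sizes the library values overlapped, at 353 ± 9.3 against 321 ± 38.0 CPM (SD, n = 3 each). Its log2 fold change of 0.14 ± 0.13 did not pass (edgeR adjusted p = 0.330), with a 95% interval from −0.12 to 0.40, and was −0.0058 without wild type A. By totals it was 1.39 (adjusted p = 4.13e-09), and with upper-quartile factors it passed at 0.31 (adjusted p = 0.0190), as did 45.7% of tested genes in that direction.

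AGL65, a P-clade partner, had 4713, 4720 and 1840 counts in paps1-3 and 1223, 1103 and 1351 in wild type. The groups were close without overlapping on TMM sizes, at 72.4 ± 8.1 against 55.5 ± 4.7 CPM (SD, n = 3 each). A log2 fold change of 0.38 ± 0.13 passed (edgeR adjusted p = 0.0120), as did 1.64 by totals (adjusted p = 6.10e-09). By TMM the call was lost without paps1-3 B (0.31), wild type A (0.35), wild type B (0.25) or wild type C (0.37), with adjusted p over the 6 libraries left out in turn from 0.0150 to 0.206, and without a filter on low counts (adjusted p = 0.173).

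AGL94, the remaining P-clade gene, was scarce in wild type, with 14, 15 and 31 counts against 288, 226 and 103 in paps1-3. Wild type C held about as many counts as A and B together, and every paps1-3 library lay above it. The level was 3.98 ± 0.62 against 0.896 ± 0.388 CPM (SD, n = 3 each). Its log2 fold change was 2.14 ± 0.30 (edgeR adjusted p = 1.16e-06), and 3.41 by totals (adjusted p = 3.52e-08), the highest of the 7 genes under both scalings.

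**Figure D2:**
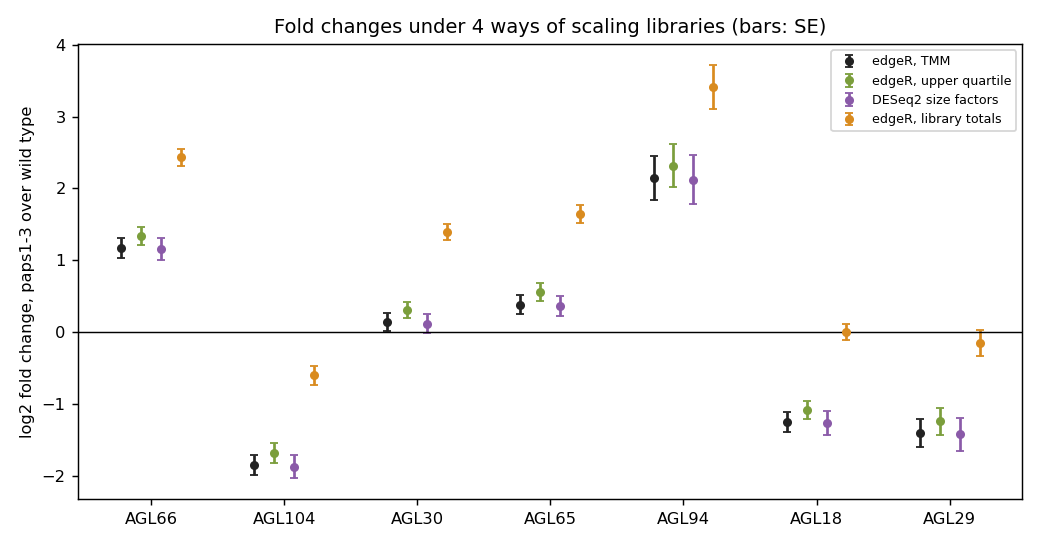
log2 fold change of paps1-3 over wild type for each gene under 4 scalings, with bars for the standard error. TMM, upper-quartile and DESeq2 size factors lie close together, and library totals lie above them. AGL66, AGL65 and AGL94 stay above 0 and AGL104 below 0 under all 4, while AGL18 moves from −1.25 by TMM to 0.00 by totals.

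Of the members outside the MIKC* class, AGL18 is a floral repressor related to AGL15 that is also expressed in pollen. It had 9633, 12601 and 5356 counts in paps1-3 and 7642, 9766 and 11392 in wild type. Its level was 182 ± 25 against 433 ± 67 CPM on TMM sizes, and 279 ± 23 against 280 ± 35 CPM by totals (SD, n = 3 each), so the groups were apart on the first scale and overlapped on the second. The estimate was −1.25 ± 0.14 on the log2 scale (edgeR adjusted p = 2.99e-08), and 0.00 ± 0.11 by totals (adjusted p = 0.994).

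AGL29 had 256, 367 and 168 counts in paps1-3 and 235, 292 and 410 in wild type. Its level was 5.32 ± 1.01 against 14.1 ± 3.4 CPM on TMM sizes and 8.12 ± 1.01 against 9.05 ± 1.76 by totals (SD, n = 3 each). As for AGL18, only the TMM values kept the groups apart. The estimate was −1.41 ± 0.19 on the log2 scale (edgeR adjusted p = 6.87e-07), and −0.16 ± 0.18 by totals (adjusted p = 0.429).

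On TMM sizes 3 members had every paps1-3 library above every wild-type library and 3 had every one below, against 44.0% and 31.5% of tested genes. By totals 4 members were above (AGL66, AGL30, AGL65 and AGL94) and 1 below (AGL104), against 71.2% and 10.5% of tested genes. Called by totals were the same 4 as higher and AGL104 as lower, beside 70.3% and 9.70% of tested genes (80.0% in either direction).

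Levels were compared between genes per kilobase of exon, using TAIR10.1 exon lengths of 1064 to 2334 bases that join the exons of all annotated transcripts. This division sets the order of AGL104 and AGL65 in wild type. Before it, every wild-type AGL65 library (50.1 to 58.6 CPM) lay above every AGL104 library (40.8 to 48.7 CPM). In wild type the order of level from the top was AGL18 (210 ± 32 CPM per kilobase), AGL30 (138 ± 16), AGL66 (36.9 ± 6.4), AGL104 (35.7 ± 3.2), AGL65 (25.7 ± 2.2), AGL29 (13.2 ± 3.2) and AGL94 (0.470 ± 0.204; SD, n = 3 each). Of these neighbours in the order, AGL66 and AGL104 overlapped between libraries and the others did not. In paps1-3 AGL30 came first (151 ± 4.0), followed by AGL18 (88.6 ± 12.2) and AGL66 (83.4 ± 3.1), which overlapped. AGL65 (33.5 ± 3.8) then stood above AGL104 (9.88 ± 1.18), AGL29 (5.0 ± 0.9) and AGL94 (2.09 ± 0.33), with no further overlap between neighbours.

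**Figure D3:**
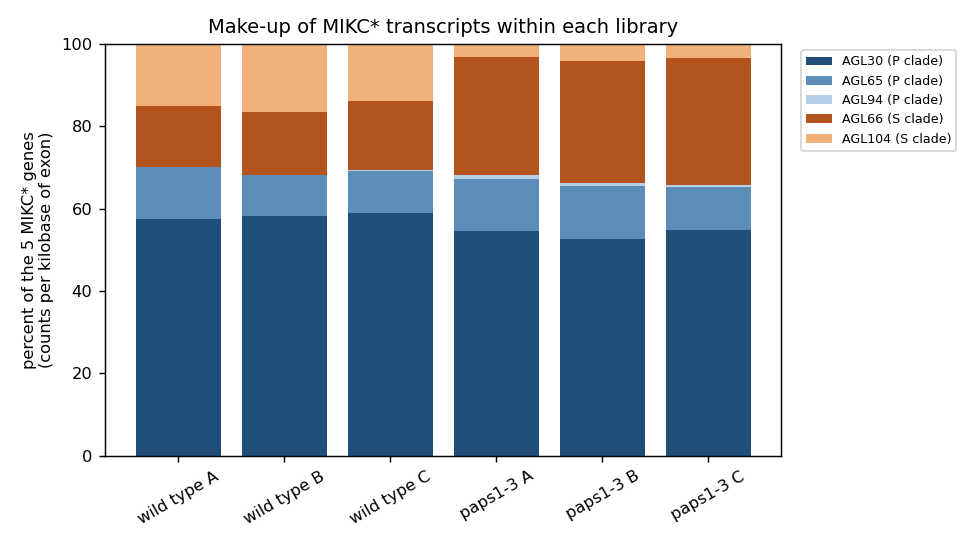
Share of each MIKC* gene in the summed counts per kilobase of the 5 MIKC* genes, for each library. AGL30 holds over 50% in all 6 libraries. The S-clade part (orange) averages 30.7% in wild type and 33.3% in paps1-3, with less AGL104 and more AGL66 in each of the 3 paps1-3 libraries.

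Within the 5 MIKC* genes the largest changes in make-up, in percentage points, were those of AGL66 and AGL104 in the S clade. As log2 ratios to the summed counts, AGL104 changed by −2.10, AGL94 of the P clade by 1.93 and AGL66 by 0.94. AGL66 made up 21.9% ± 0.9 of the counts of the 5 genes in paps1-3 and 11.5% ± 0.7 in wild type, and AGL104 2.22% ± 0.28 and 9.52% ± 0.86 (SD, n = 3 each). AGL30 held 62.4% ± 1.3 and 67.1% ± 0.9, and AGL94 0.702% ± 0.106 and 0.184% ± 0.059. Libraries of the 2 groups did not overlap for these 4 genes. For AGL65 they did, at 12.8% ± 1.5 and 11.7% ± 1.5. These shares are parts of one whole, so a gain by AGL66 lowers the share of other genes. The lower share of AGL30 was not a lower level: it was 353 against 321 CPM by TMM, and higher by totals. The S clade together held 24.1% ± 1.0 of the counts in paps1-3 and 21.0% ± 0.7 in wild type, a log2 ratio of S over P clade that was higher by 0.26 without overlap. The exact permutation p was 0.1 for each of these measures, the smallest possible, except AGL65 (p = 0.2).

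The 5 MIKC* genes took 0.0872% ± 0.0071 of all gene counts in paps1-3 and 0.0309% ± 0.0021 in wild type (SD, n = 3 each; exact permutation p = 0.1, adjusted 0.114). This share is on library totals. Their summed level on TMM sizes was 562 to 570 CPM in paps1-3 and 432 to 533 CPM in wild type, which also did not overlap. By TMM 44.0% of single tested genes had every paps1-3 library above wild type.

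Set among all tested genes, whose median log2 fold change was 0.37, the members lay on both sides. AGL94 had 23.8% of tested genes above it and AGL66 36.5%, while AGL104 had 91.2% above it. Among the 3784 tested genes with an average level of at least 10 CPM the median was −0.72, and 10.8% of them had a higher log2 fold change than AGL66, 20.8% than AGL65, 25.3% than AGL30, 66.3% than AGL18 and 81.9% than AGL104. By totals the median of these more abundant genes was 0.53. AGL94 and AGL29, at average levels of 1.39 and 3.27 log2 CPM, lie below 10 CPM. They were not set against genes as scarce as they are, so the place of AGL94 among all tested genes does not allow for its level.

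**Figure D4:**
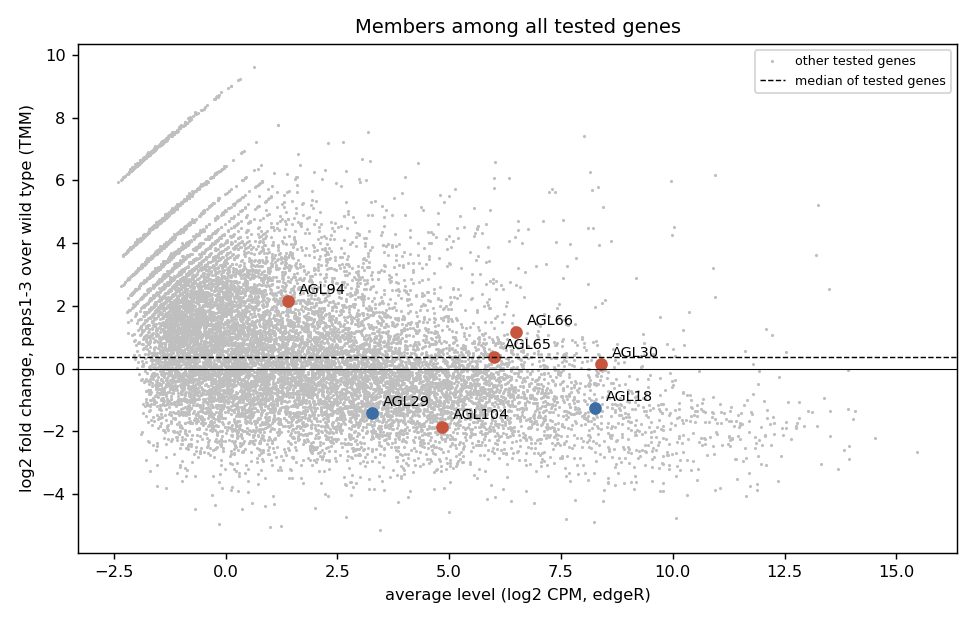
log2 fold change by TMM against average level in log2 CPM for all 14273 tested genes (grey). MIKC* genes are red, AGL18 and AGL29 blue, and the dashed line is the median of 0.37. AGL94 and AGL66 lie above the line, AGL65 on it and the other members below it.

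The genes most like AGL30, the member with the highest mean CPM, were sought by the root mean square difference of log2 CPM over the 6 libraries, each gene centred on its own mean. The 5 closest of 14272 genes were NTL (AT1G11570), AT1G16570, LPR2 (AT1G71040), AT1G18410 and AT5G41580, at differences of 0.04 to 0.07. AGL65 ranked 978 at 0.20, AGL66 ranked 7995 and AGL104 ranked 12505. All these profiles share the same 6 libraries and scaling, and the measure includes the difference between groups. The 5 closest genes had log2 fold changes of 0.08 to 0.28, against 0.14 for AGL30.

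The MEF2-type CArG box bound by MIKC* dimers was searched on both strands in the 1000 bases before each annotated gene start, where 5.90% of 27443 protein-coding genes hold one. Of the 7 members AGL104 alone had a match, beginning 97 bases before its gene start. It is shown with its flanks because AGL104 is the MIKC* gene that fell, with the box in capitals.
AGL104 upstream (TAIR10.1 chr1:7814423-7814452, minus strand): gtcaaaaattCTAATTTTAGttcctattaa
A match is a description of these letters and not a binding site.

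Other MADS-box genes of the classical MIKC class, which act mostly in flowering time and floral organs, were low in pollen. Of 38 such genes 14 were tested, of which 7 were called higher and 5 lower, beside 42.3% and 29.9% of all tested genes. Their median log2 fold change was 0.80, against 0.37 for all tested genes. By totals 8 were higher and 2 lower, beside 70.3% and 9.70% of all tested genes (median 2.05, against 1.63). These counts of 14 genes do not stand out from those shares. DESeq2 called 3 higher (39.9% of all tested genes), and 4 were called higher without wild type C. Their summed level was 15.01 to 18.8 CPM in paps1-3 by TMM, against 23.4 to 24.8 in wild type, but 22.1 to 31.5 against 15.05 to 16.7 CPM by totals, the reverse order. In all, 9 of the 38 had no count in any wild-type library, and 0 of the 38 had no count in all 6. Over all genes, too, each paps1-3 library held more genes with a count (24587 to 30343) than any wild-type library (16869 to 19668).

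AGL21, a root development gene, had the smallest p among them, with 11, 7 and 4 counts in paps1-3 against 93, 111 and 117 (log2 fold change −5.03 ± 0.34, edgeR adjusted p = 2.70e-12; −3.77 by totals). MAF3, a flowering repressor related to FLC, had 25, 39 and 13 counts against 92, 90 and 67 (−2.90 ± 0.31; −1.67 by totals). It lies in a tandem array of similar genes, so its counts are uncertain. SOC1, a flowering activator, had 75, 96 and 32 counts in paps1-3 and 1 in each wild-type library (edgeR adjusted p = 6.23e-07). AGL15, the relative of AGL18, also rose, with 68, 58 and 28 counts against 9, 2 and 4 (2.13 ± 0.56, adjusted p = 0.00180). SEP1, a floral organ gene, and FLM, a flowering repressor, fell by TMM (−1.33 ± 0.33 and −1.61 ± 0.40) but not by totals (−0.07 and −0.35).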

How the data were processed

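The authors aligned reads with TopHat2 and made gene counts with HTSeq on TAIR10, per the submitters' processing notes; no source used here gives versions, options or the annotation. What they deposited is 1 table of raw counts per library. Categories without a gene name entered neither library sizes nor tests; they held 11.8% to 15.3% of all rows in paps1-3 and 8.84% to 9.72% in wild type. Reads placed at several positions made up 7.90% to 11.6% and 5.30% to 6.14%.

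Differential expression was tested on all genes with edgeR 4.0.16 (R 4.3.3), using its robust quasi-likelihood test, TMM factors, genotype as the only term and filterByExpr (minimum count 10, minimum total 15). Calls used Benjamini-Hochberg adjusted p below 0.05. Alternatives were library totals, upper-quartile factors, DESeq2 1.42.0, other filters on low counts, the letter as a block and leaving out each library. Two-sided exact permutation tests were used for ratios and shares (scipy 1.17.1), with 0.5 added to counts in ratios. The edgeR step was tested on simulated data in which most genes did not change and changes up and down were balanced. That setting meets the TMM assumption, so it does not test the choice of scaling.

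Symbols, exon lengths and sequences came from RefSeq TAIR10.1, a later release of the authors' build; the count tables hold no coordinates, and 32835 of 33602 identifiers matched. Libraries within a group differed by 17.8 to 35.7 times the chi-square expected from counting noise, so none was treated as a duplicate. Members and lists were chosen with earlier results of these data known. Named were all members and AGL67, up to 6 called classical MIKC genes with the smallest p, the 2 most abundant genes of each marker list and the 5 genes most like AGL30.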

Additional observations from a re-analysis of the deposited data

How the results depend on the processing

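AGL66, AGL94 and AGL104 kept their direction and their call in every alternative run. Scaling by library totals had the widest effect: AGL30 was called at 1.39, AGL18 turned to 0.00094, AGL29 missed the threshold at −0.16, members called lower went from 3 to 1, classical MIKC genes called lower from 5 to 2, and all genes from 6037 higher and 4273 lower to 10031 and 1385. AGL30 was also called with upper-quartile factors (0.31) and with a filter of 1 CPM in 3 libraries (0.29). Without a filter on low counts AGL65 missed the threshold (0.29). Classical MIKC genes called higher numbered 7, against 3 by DESeq2, 4 without a filter on low counts and 2 with 1 CPM in 3 libraries. With 1 library left out, AGL30 ranged from −0.0058 (without wild type A, where its sign turned) to 0.17, AGL65 from 0.25 to 0.40, and classical MIKC genes called higher from 4 to 6. The cause of these shifts was not tested.

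The letters were not taken to pair libraries, since the labels do not say that they do. Deviations from group means correlated at 0.26 (A), 0.08 (B) and 0.09 (C) for libraries of the same letter. Other pairs with an A library correlated at −0.17 to −0.12, but paps1-3 B correlated better with wild type C (0.10) than with wild type B. These values do not settle whether letters pair libraries. With the letter as a replicate block AGL30 was at 0.14 and AGL65 at 0.38, no member's call changed, and 6116 genes were higher and 4426 lower. Leaving out a library kept the direction of each within-library ratio, but the smallest possible p is then 0.2. AGL94 in wild type and AGL67 rest on few counts.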
